A study of Mus musculus with 8 samples.

Results

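The TGF-beta and BMP signalling family was followed in hippocampal RNA of mice at 2 ages. Members were chosen by gene symbol: every probe that was not a control and whose accession matched a mouse gene named Bmp, Gdf, Smad or Tgfbr with a number, Tgfb1 to Tgfb3, a gene starting with Acvr, Inha or Inhb, or Bmpr1a, Bmpr1b, Bmpr2, Nog, Chrd or Fst. This gave 53 genes on 70 probes, of 19751 named genes on 39429 probes in all. Of these genes, 36 were read by 1 probe and 17 by 2, and all 70 probes could be tested. The symbols Tgfbr3l and Bmp4-ps also fit the rule and were matched to no probe. The young group (3M) held 4 samples at 3 months and the aged group (29M) 4 samples at 29 months. All were wild type C57BL/6J mice, untreated and aged in the home cage, and each sample was a hippocampus dissected whole by hand and hybridised to 1 array with Cy3 label. The older mice had been bought at an advanced age and kept on, and their sex is not given in the sources used here. The labels do not say that each sample was a separate mouse, so the p-values measure the spread between these samples. Groups follow the sample each scanner file was deposited under. A deposited table of local background named another sample than those files in 7 of its 8 columns, and a sample of the other age in 4. The labels alone do not settle which assignment is right. By the scanner files the astrocyte marker Gfap, which the study reports as increased during aging, did not overlap between the ages. Its normalized log2 intensity was 15.36 to 15.73 in 3M and 15.98 to 16.36 in 29M. The assignment of the background table would mix these values within both groups.

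Ligands of this family are secreted dimers. They bind a complex of type II and type I receptors, which are serine/threonine kinases, and the type I receptor then phosphorylates receptor-regulated Smads that enter the nucleus with Smad4. TGF-betas and activins act mainly through Smad2 and Smad3, and BMPs mainly through Smad1, Smad5 and Smad9. Secreted antagonists such as noggin, chordin and follistatin trap ligands, and the inhibitory Smads, Smad6 and Smad7, block the signal inside the cell. In the adult hippocampus BMP signalling holds neural stem cells quiescent, and activin A, a dimer of the Inhba product, is made by neurons in response to activity.

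Levels are given as normalized log2 intensity, a scale on which 1 unit is a doubling and on which weak signals are compressed, so that differences of dim probes come out too small. A gene with several probes is shown by the brightest, judged by the mean of all arrays, and levels of different genes cannot be compared because each probe has its own brightness. A change is 29M minus 3M, and a probe was called when limma's adjusted p was under 0.1 and the change at least 0.5 in size. Of the 53 members, 49 were well above background on all 8 arrays. The exceptions were Bmp15, Gdf2, Gdf6 and Inhbc. All 10 markers of hippocampal subfields and all 11 neuron markers were well above background on every array. Most spots of each array were too, so this does not by itself identify the tissue. There were 3 slides, with arrays of both ages on each, and 76.2% to 85.0% of an array's spots were well above background. Replicate 1 of 3M was the array with the lowest share, and the extraction software marked it for evaluation. It stood apart for 7 members, whose values are given with and without it.

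The comparison of 29M with 3M asked which parts of the pathway differ in transcript level with age. In 29M Bmp7, a BMP ligand, and Smad6, an inhibitory Smad, rose, by 1.66-fold and 1.46-fold. Inhba, the subunit of activin A, and Fst, which encodes the activin trap follistatin, fell, by 1.56-fold and 2.21-fold. No other member passed both thresholds in limma's test. The called members were thus 4 of 53 (7.55%), 2 in each direction, where 2.66% of all 19742 tested genes had a called probe, 1.81% higher and 0.861% lower. By probe they were 4 of 70, where 1.96% of all tested probes were called, 1.21% higher and 0.751% lower. An adjusted p under the threshold at any size of change was reached by 5 members (9.43%), Smad9 being the fifth, and by 3.94% of all genes. At an unadjusted p under 0.05, 12 members were higher and 8 lower, which is 37.7% of the members against 17.4% of all tested genes. The median change was 0.04 over the members and 0.01 over all tested genes.

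The 4 arrays of 3M and the 4 of 29M did not overlap for 15 members (28.3%), against 11.6% of all tested genes. Higher without overlap were Bmp2, Bmp7, Smad3, Smad6, Smad9, Tgfb3 and Tgfbr1 (7 members, where the share was 6.31% of all genes). Lower without overlap were Bmp8a, Bmp8b, Fst, Gdf3, Gdf5, Gdf11, Inhba and Inhbe (8 members, where the share was 5.27%). Each slide held arrays of both ages, so groups without overlap have 1 direction on every slide by construction. Of all 53 members, 33 had 1 direction on each of the 3 slides. These are whole-tissue values, in which fewer cells of a type and less RNA per cell cannot be told apart.

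**Figure D1:**
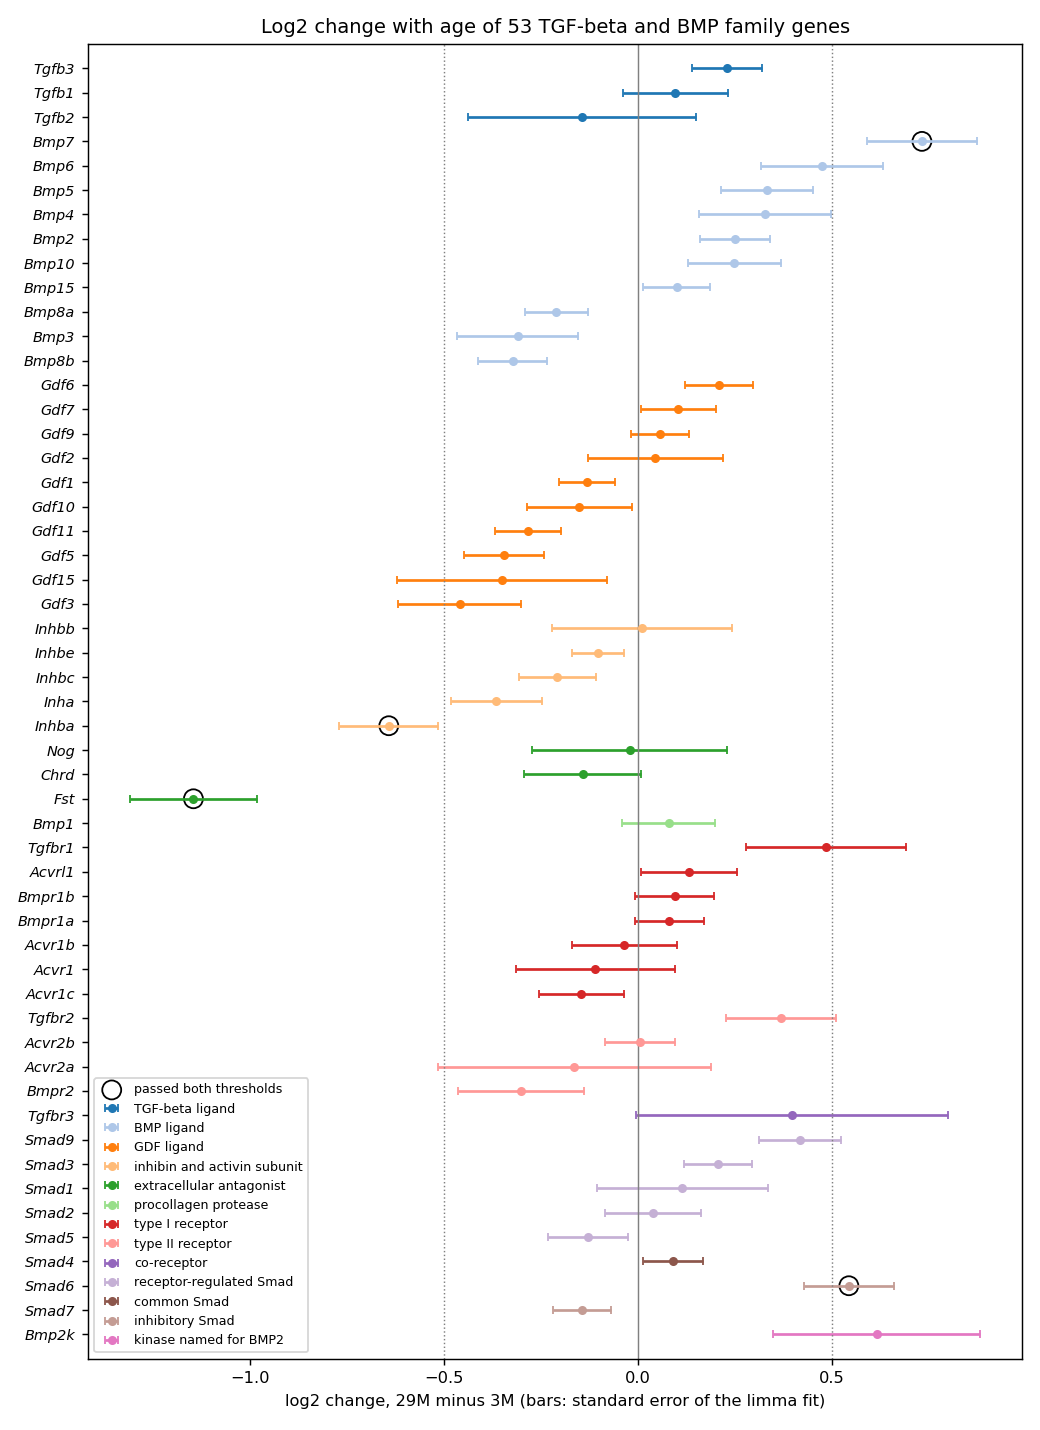
Log2 change, 29M minus 3M, of the 53 members on their brightest probe, ordered by role. Points are changes, bars the standard error of the limma fit, colours the role, dotted lines the size threshold of 0.5, and circles mark the 4 members that passed both thresholds. Bmp7 (0.73) and Smad6 (0.54) lie to the right and Inhba (-0.64) and Fst (-1.15) to the left, while the receptors lie within the dotted lines.

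Fst showed the largest change of any member. Follistatin binds activins almost irreversibly and keeps them from their receptors. Its intensities were 9.72, 9.51, 9.71 and 9.10 in 3M and 8.51, 8.55, 8.37 and 8.03 in 29M, so that the highest aged array lay below the lowest young one. From a mean of 9.51 ± 0.29 (SD, n = 4) in the young group to 8.36 ± 0.24 (SD, n = 4) in the aged one it fell by 1.15 on the log2 scale (SE 0.16, limma adjusted p 0.0129). Its change was -1.52, -0.96 and -0.89 on slides 1, 2 and 3. With slide as a block the change was -1.14 (limma adjusted p 0.0474), and it was called under all 18 alternative settings.

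Inhba encodes the beta A subunit, which pairs with itself as activin A. Its arrays read 11.20, 11.13, 11.33 and 11.36 in 3M and 10.65, 10.87, 10.68 and 10.26 in 29M, again without overlap. From a mean of 11.26 ± 0.11 (SD, n = 4) in the young group to 10.61 ± 0.26 (SD, n = 4) in the aged one it fell by 0.64 on the log2 scale (SE 0.13, limma adjusted p 0.0457). Replicate 4 of 29M was the lowest aged array. Without it the change was -0.52 and still called. On slides 1, 2 and 3 the change was -0.73, -0.26 and -0.69, and with slide as a block it was -0.59 (limma adjusted p 0.0999). The call was lost in 5 of the 18 alternatives, among them the fits without replicate 3 of 3M (-0.62, adjusted p 0.109), replicate 4 of 3M (-0.61, 0.1003) and replicate 1 of 29M (-0.66, 0.118). The ligand subunit and its trap thus both fell, and each was read by 1 probe. Of the 11 neuron markers limma called 0, with 0 at an unadjusted p under 0.05, and their summed level ran from 19.46 to 19.60 in 3M and from 19.46 to 19.54 in 29M. The brightest markers, such as Snap25 and Syt1, weigh most in this sum. Among the 10 markers of hippocampal subfields limma called 0, with 1, Pcp4, at an unadjusted p under 0.05 (-0.34, without overlap). The part of neurons in the changes of Inhba and Fst was not tested.

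The other subunits of activins and inhibins were not called by limma, although Inha had an unadjusted p under 0.05. Inha, the alpha subunit that turns an activin into an inhibin, read 11.96, 12.26, 12.41 and 12.22 in 3M and 11.98, 11.78, 11.98 and 11.65 in 29M, a difference of -0.37 (limma adjusted p 0.164). Its groups overlapped. Inhbe, the beta E subunit, read 7.42, 7.34, 7.34 and 7.42 in 3M and 7.28, 7.27, 7.31 and 7.24 in 29M, a difference of -0.10 (limma adjusted p 0.470) that was small but free of overlap. Inhbc, the beta C subunit, differed by -0.21 and was well above background on 3 arrays of each group. Inhbb, the beta B subunit, differed by 0.01 (SE 0.23), but its replicate 1 of 3M was 0.83 below the next young array and without it the difference was -0.24.

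**Figure D2:**
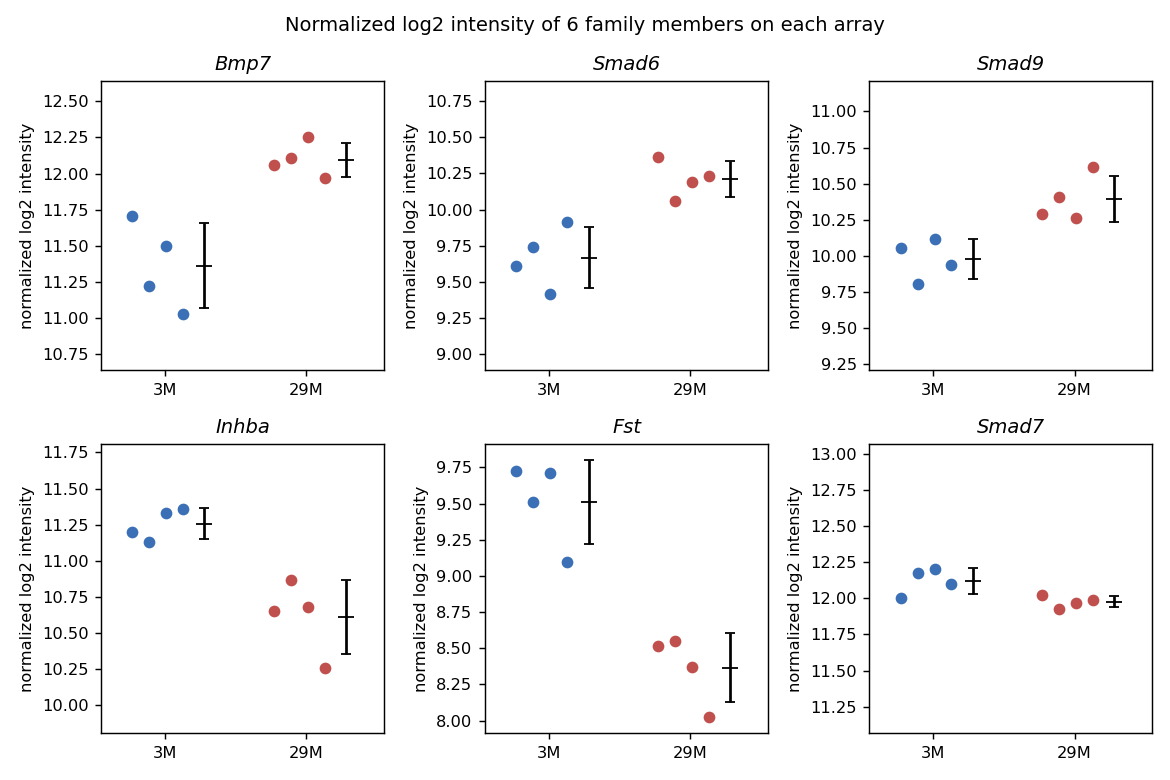
Normalized log2 intensity of 6 members on each array. Blue points are the 4 arrays of 3M and red points the 4 of 29M, the black mark beside them is the mean with its SD, and every panel spans 2 log2 units. Bmp7, Smad6 and Smad9 are higher in 29M and Inhba and Fst lower, without overlap, while Smad7 overlaps.

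Among the 10 BMP ligands 7 were higher and 3 lower in 29M, with a median change of 0.25, and 6 had an unadjusted p under 0.05. Bmp7 was the only one called. BMP7 is made by meninges and choroid plexus, among other tissues, and signals through BMP receptors of type I and II. Its intensities were 11.70, 11.22, 11.50 and 11.03 in 3M and 12.06, 12.10, 12.25 and 11.97 in 29M, so that every aged array lay above every young one. From a mean of 11.36 ± 0.30 (SD, n = 4) in the young group it rose to 12.10 ± 0.12 (SD, n = 4), by 0.73 (SE 0.14, limma adjusted p 0.0424). On slides 1, 2 and 3 it was 0.41, 0.88 and 0.79, and with slide as a block 0.68 (limma adjusted p 0.0978). The call was lost in 4 of 18 alternatives. These were the 75th percentile scaling of processed signals (0.63, adjusted p 0.108) and the fits without replicate 2 of 3M (0.68, 0.132), replicate 1 of 29M (0.74, 0.115) or replicate 2 of 29M (0.73, 0.115).

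Bmp6, a close relative of Bmp7 known also for its part in iron regulation, read 11.81, 12.30, 11.73 and 12.35 in 3M and 12.70, 12.46, 12.59 and 12.35 in 29M. The lowest aged and the highest young array met at 12.35. The difference of 0.47 (SE 0.16, limma adjusted p 0.173) was called under none of the 18 alternatives. Bmp2 read 9.76, 9.60, 9.85 and 9.80 in 3M and 9.90, 9.91, 10.16 and 10.04 in 29M, a small difference of 0.25 without overlap (limma adjusted p 0.206). Bmp4, which like Bmp2 signals through Bmpr1a and Bmpr1b, read 11.79, 11.68, 11.38 and 11.85 in 3M and 12.17, 11.91, 12.35 and 11.58 in 29M, with replicate 4 of 29M among the young values. Its difference was 0.33 (SE 0.17, limma adjusted p 0.371), and its other probe was well above background on no array. Bmp5 differed by 0.33 and Bmp10 by 0.25, with limma adjusted p of 0.203 and 0.337. Bmp15, known from the oocyte, was well above background on only 2 arrays of each group, and its difference of 0.10 is at the limit of detection.

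The ligands Bmp3, Bmp8a and Bmp8b had the other sign. Bmp8b read 7.47, 7.46, 7.70 and 7.43 in 3M and 7.17, 7.13, 7.32 and 7.15 in 29M, a difference of -0.32 (limma adjusted p 0.113). Bmp8a read 10.39, 10.36, 10.56 and 10.44 in 3M and 10.18, 10.29, 10.13 and 10.31 in 29M, a difference of -0.21 (limma adjusted p 0.226). Neither pair of groups overlapped, yet neither change passed the threshold, and the genes are near-identical neighbours whose probes may read each other. Bmp3, which opposes other BMPs, differed by -0.31 and its groups overlapped.

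The Smads carry the signal of all these ligands. Of 8 Smads 1 was called, and 3 had an unadjusted p under 0.05, all of them higher in 29M. Smad6, which blocks BMP signals above all and is itself switched on by them, read 9.61, 9.74, 9.42 and 9.91 in 3M and 10.36, 10.06, 10.19 and 10.23 in 29M. The groups did not overlap, and from a mean of 9.67 ± 0.21 (SD, n = 4) in the young group it rose to 10.21 ± 0.12 (SD, n = 4), by 0.54 (SE 0.12, limma adjusted p 0.0547). It was close to the size threshold and lost its call in 7 of 18 alternatives, with changes from 0.46 to 0.62. The 4 left-out arrays that ended it were replicate 2 of 3M (0.57, adjusted p 0.134), replicate 3 of 3M (0.46, 0.110), replicate 1 of 29M (0.49, 0.156) and replicate 4 of 29M (0.54, 0.131). On slides 1, 2 and 3 the change was 0.60, 0.32 and 0.70, and with slide as a block it was 0.56 (limma adjusted p 0.112). Smad6 is known from blood vessels. Of the 8 endothelial markers 7 were higher in 29M and 1 lower, with a median change of 0.08. Limma called 0 of them, with 2 at an unadjusted p under 0.05, Flt1 (0.37, without overlap) and Cldn5 (0.29), both higher, and their summed level ran from 15.36 to 15.71 in 3M and from 15.62 to 15.80 in 29M, which overlap. Of 8 markers of the mural cells of vessels 4 were higher and 4 lower, with a median change of -0.008. Limma called 0 of the mural markers, with 1, a higher one, at an unadjusted p under 0.05. The part of the vessels in the change of Smad6 was not tested.

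Smad9, a receptor-regulated Smad of the BMP branch, read 10.05, 9.80, 10.12 and 9.94 in 3M and 10.29, 10.41, 10.26 and 10.62 in 29M, without overlap. The difference of 0.42 (SE 0.11) had a limma adjusted p of 0.0922, under the threshold, but its size was below 0.5, so it was not called. It was not called under any of the 18 alternatives either, with changes from 0.33 to 0.46. Smad3, a Smad of the TGF-beta and activin branch, read 14.43, 14.47, 14.22 and 14.48 in 3M and 14.54, 14.63, 14.53 and 14.72 in 29M, a difference of 0.21 (limma adjusted p 0.268). Its dimmer probe differed by -0.18, so that the probes disagreed in sign.

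Smad7, the inhibitory Smad that blocks TGF-beta as well as BMP signals, read 12.003, 12.175, 12.205 and 12.099 in 3M and 12.022, 11.926, 11.970 and 11.986 in 29M. The highest aged array, at 12.022, lay within the young range, and the difference was -0.14 (SE 0.07, limma adjusted p 0.362). Of the inhibitory Smads Smad6 thus rose and Smad7 was not called. Smad1, Smad2, Smad4 and Smad5 differed by 0.11, 0.04, 0.09 and -0.13 on their brightest probes, and none of these had an unadjusted p under 0.05. The value of Smad1 rested on replicate 1 of 3M and was -0.08 without it. Its other probe, well above background on all arrays, read 7.81, 7.83, 7.66 and 7.97 in 3M and 7.56, 7.53, 7.59 and 7.54 in 29M, a difference of -0.27 without overlap (unadjusted p 0.00912, limma adjusted p 0.148). On slides 1, 2 and 3 it was -0.25, -0.30 and -0.26. For Smad4 too the other probe had the opposite sign (-0.08).

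The start regions of 3 members without overlap are shown because Smads and other signal-dependent factors can bind there. Of the 53 members 37 had an entry in the RefSeq promoter table (GRCm38.p6). Bmp7 and Fst had none. The 250 bases before the annotated start are printed for Smad6, Smad9 and Inhba, 5′ to 3′ on the gene's strand, with matches to any of 4 motifs in capitals. These were GGCGCC, a GC-rich box bound by BMP Smads, CAGAC, the short Smad box, TGACGTCA, the cAMP response element, and TATAAA, the TATA box. Both strands were searched, on which CAGAC also reads GTCTG and TATAAA also reads TTTATA, and no matches overlapped.
Smad6, chr9:64022060-64022309, minus strand: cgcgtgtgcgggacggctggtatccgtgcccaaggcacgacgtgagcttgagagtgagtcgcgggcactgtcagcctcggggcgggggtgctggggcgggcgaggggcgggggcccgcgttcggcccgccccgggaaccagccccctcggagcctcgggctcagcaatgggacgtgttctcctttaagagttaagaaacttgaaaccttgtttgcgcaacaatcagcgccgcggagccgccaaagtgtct
Smad9, chr3:54755332-54755581, plus strand: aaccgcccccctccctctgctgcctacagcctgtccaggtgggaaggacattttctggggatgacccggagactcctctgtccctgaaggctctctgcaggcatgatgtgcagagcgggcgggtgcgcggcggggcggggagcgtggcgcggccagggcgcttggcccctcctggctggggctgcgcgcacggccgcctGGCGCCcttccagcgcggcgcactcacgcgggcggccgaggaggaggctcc
Inhba, chr13:16011601-16011850, plus strand: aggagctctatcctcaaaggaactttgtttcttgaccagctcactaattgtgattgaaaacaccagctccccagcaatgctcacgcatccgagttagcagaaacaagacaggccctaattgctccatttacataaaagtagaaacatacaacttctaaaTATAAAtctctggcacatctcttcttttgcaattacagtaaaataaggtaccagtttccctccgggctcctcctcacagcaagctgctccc
The Smad9 window held GGCGCC once, starting 51 bases before the start, and this motif occurs in 9.59% of all 32851 windows of this length. The Inhba window held TATAAA once, starting 91 bases before the start, as do 12.4% of all windows in either orientation. The Smad6 window held none of the 4 motifs. CAGAC is found in 42.2% of all windows and TGACGTCA in 1.55%. The GC content was 66.8% for Smad6, 73.2% for Smad9 and 43.2% for Inhba, where the median of all windows was 52.4%. A match is a string of letters and not a binding site, and a missing match says nothing about a factor.

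Of the 3 TGF-beta ligands limma called none, and 1 had an unadjusted p under 0.05. That was Tgfb3, which read 12.23, 12.01, 12.10 and 12.04 in 3M and 12.25, 12.25, 12.51 and 12.27 in 29M, a difference of 0.23 without overlap (limma adjusted p 0.237). Tgfb1, the isoform made by microglia, read 9.11, 9.16, 8.93 and 9.25 in 3M and 9.47, 9.09, 9.38 and 8.89 in 29M, a difference of 0.10 (SE 0.14, limma adjusted p 0.766). The aged arrays reached both above and below the young ones. Of 9 measured microglia markers 2 were called higher, Tyrobp and Trem2, 6 had an unadjusted p under 0.05 and were higher, and 8 were well above background on all arrays. Their summed level ran from 17.78 to 17.91 in 3M and from 17.92 to 18.07 in 29M, without overlap but by a narrow margin. Itgam, the brightest of them at 16.64 to 16.96, weighs most in this sum and was the 1 lower marker (-0.06). Cx3cr1 had no usable value on replicate 4 of 29M and is missing from the sum of that array. Microglia also carry the TGF-beta receptors, and their part in the values of Tgfb1, Tgfbr1 and Tgfbr2 was not tested.

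Tgfb2, the isoform found in neurons and astrocytes, was the ligand whose value rested most on 1 array. It read 11.74, 13.15, 12.71 and 13.10 in 3M and 12.71, 12.78, 12.11 and 12.53 in 29M, a difference of -0.14 (SE 0.29, limma adjusted p 0.851). Replicate 1 of 3M lay 0.97 below the next young array. Its other probe read 11.74, 12.88, 12.48 and 12.48 in 3M and 12.15, 12.26, 11.75 and 11.95 in 29M and differed by -0.37 (limma adjusted p 0.435), and without replicate 1 of 3M this became -0.59 and was called (adjusted p 0.0671). The direction of the brighter probe turned with slide as a block (0.04) and without replicate 2 of 3M (0.01).

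The receptors held 0 called members in limma's test, 0 of 7 for type I, 0 of 4 for type II and 0 of 1 co-receptor, with 1, 1 and 0 at an unadjusted p under 0.05. These were Tgfbr1 and Tgfbr2, the type I and type II receptors for TGF-beta. Tgfbr1 read 12.11, 12.09, 11.81 and 11.11 in 3M and 12.15, 12.26, 12.48 and 12.17 in 29M, a difference of 0.48 (SE 0.21, limma adjusted p 0.274). Replicate 4 of 3M was far below the other young arrays, and without it the difference was 0.26. The other probe of Tgfbr1, well above background on 3 arrays of each group, differed by -0.04. Tgfbr2 read 13.02, 12.68, 12.27 and 12.73 in 3M and 13.01, 12.99, 13.16 and 13.02 in 29M, with replicate 1 of 3M inside the aged range. Its difference was 0.37 (SE 0.14, limma adjusted p 0.229), and its dimmer probe, at 7.33, 7.22, 7.03 and 7.16 against 7.41, 7.50, 7.46 and 7.54, differed by 0.29 without overlap (limma adjusted p 0.126). Both probes of Tgfbr2 were thus higher, and neither was called.

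The BMP receptors showed small differences. Bmpr1a, the main type I receptor of neural stem cells, read 12.86, 12.85, 12.73 and 13.03 in 3M and 12.86, 12.86, 13.07 and 13.00 in 29M, a difference of 0.08 (SE 0.09, limma adjusted p 0.697). Bmpr1b read 10.61, 10.49, 10.49 and 10.50 in 3M and 10.68, 10.64, 10.79 and 10.35 in 29M, a difference of 0.09 (limma adjusted p 0.685), with the opposite sign on its other probe. Bmpr2, the type II receptor for BMPs, read 9.59, 10.01, 9.95 and 9.55 in 3M and 9.61, 9.82, 9.28 and 9.19 in 29M, a difference of -0.30 (SE 0.16, limma adjusted p 0.389). In all 3 the groups overlapped. Acvr1c, a type I receptor for activins and Nodal, read 11.64, 11.54, 11.49 and 11.62 in 3M and 11.44, 11.68, 11.42 and 11.16 in 29M, a difference of -0.15 (limma adjusted p 0.538). On the other probe of Acvr1c the difference was 0.08. The receptors Acvr1, Acvr1b, Acvr2b and Acvrl1 differed by -0.11, -0.03, 0.01 and 0.13, and the other probe of Acvr1 differed by 0.25.

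Replicate 1 of 3M was more than 0.5 below every other young array for 7 members (13.2%), where this held for 4.02% of all tested genes. These were Acvr1, Acvr2a, Inhbb, Nog, Smad1, Tgfb2 and Tgfbr3. The gap was largest for Tgfbr3, the co-receptor betaglycan, at 1.69, and for Acvr2a, a type II activin receptor, at 1.20. Acvr2a read 10.00, 11.79, 11.85 and 11.21 in 3M and 11.21, 11.05, 10.88 and 11.05 in 29M, a difference of -0.16 (SE 0.35, limma adjusted p 0.858). Its other probe, well above background on all arrays, differed by 0.14 (limma adjusted p 0.918), so that the probes disagreed in sign. Without replicate 1 of 3M the brighter probe of Acvr2a differed by -0.57 and was called (adjusted p 0.0896). Tgfbr3 read 10.12, 12.30, 11.82 and 11.82 in 3M and 12.09, 12.06, 11.50 and 11.99 in 29M, a difference of 0.40 (SE 0.40) that became -0.07 without this array. The differences of Acvr1, Nog, Smad1 and Tgfb2 without it were -0.33, -0.26, -0.08 and -0.46, so that Smad1 and Tgfbr3 changed sign. Leaving out this array raised the called lower members from 2 to 4, by Acvr2a and Tgfb2, and left the called higher members at Bmp7 and Smad6. No other array lay as far below the rest of its group for more than 1 member.

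**Figure D3:**
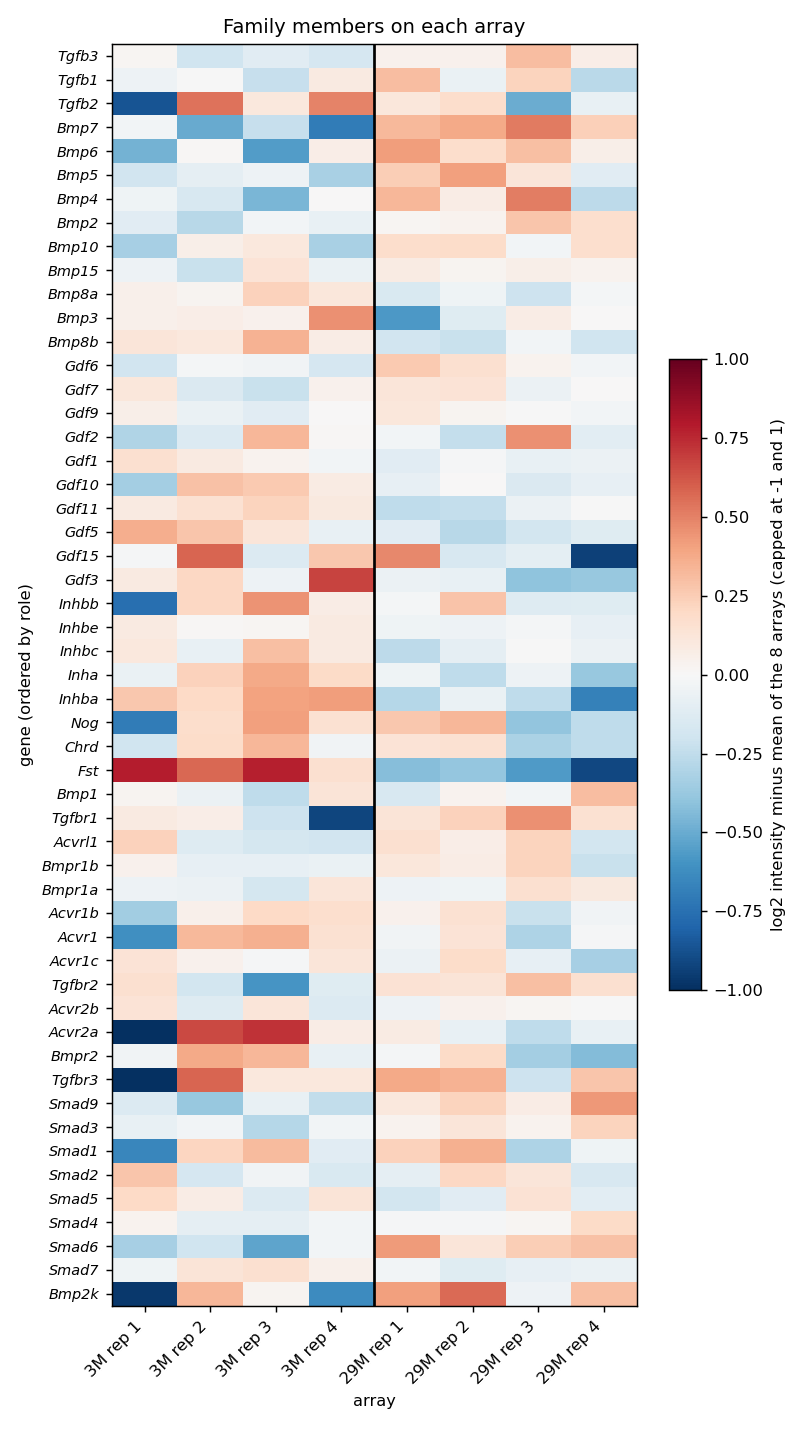
Normalized log2 intensity of each member on each array minus the mean of the 8 arrays, with red above and blue below it and colours capped at -1 and 1. Rows are members ordered by role, and columns are arrays, with 3M left and 29M right of the black line. Fst and Inhba change from red to blue and Bmp7 and Smad6 from blue to red at the line, and dark blue cells for Tgfbr3 and Acvr2a stand in the column of replicate 1 of 3M.

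Of the 10 growth and differentiation factors limma called 0, and 1 higher and 3 lower ones had an unadjusted p under 0.05. Gdf11, close in sequence to myostatin, read 7.99, 8.05, 8.12 and 7.99 in 3M and 7.64, 7.66, 7.84 and 7.89 in 29M, a difference of -0.28 without overlap (limma adjusted p 0.138). Gdf5 read 9.30, 9.21, 9.06 and 8.86 in 3M and 8.82, 8.66, 8.75 and 8.81 in 29M, a difference of -0.35 without overlap (limma adjusted p 0.139), and its other probe differed by -0.16. Gdf3 read 10.24, 10.36, 10.10 and 10.83 in 3M and 10.09, 10.08, 9.75 and 9.77 in 29M, a difference of -0.46 (limma adjusted p 0.189), while its other probe was well above background on no array. These 3 stayed short of the thresholds.

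Gdf10, an astrocyte-enriched relative of Bmp3, read 10.21, 10.85, 10.82 and 10.64 in 3M and 10.47, 10.56, 10.41 and 10.48 in 29M, a difference of -0.15 (limma adjusted p 0.616). Gdf15, a cytokine of cell stress, differed by -0.35 (SE 0.27) with a wide spread, from 7.53 to 8.94 in 29M alone. Gdf1, whose transcript also encodes the ceramide synthase Cers1 so that its probe reads both, differed by -0.13, and its other probe by 0.04. Gdf9 differed by 0.06. Gdf7 differed by 0.10 on its brighter probe, while its other probe, well above background on all arrays, read 7.47, 7.67, 7.69 and 7.42 in 3M and 7.23, 7.34, 7.21 and 7.09 in 29M, a difference of -0.34 without overlap (limma adjusted p 0.110). Gdf6, the higher one at an unadjusted p under 0.05 (0.21), was well above background on 1 array of 29M and 0 of 3M, and Gdf2 on 1 array of each group, so both were at the limit of detection.

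Of the extracellular antagonists Fst alone was called. Nog encodes noggin, which traps BMPs in the neurogenic niche, and read 7.54, 8.42, 8.65 and 8.40 in 3M and 8.51, 8.58, 7.85 and 7.99 in 29M. Its difference was -0.02 (SE 0.25, limma adjusted p 0.977), and the sign turned in 7 of 18 alternatives. Chrd, encoding chordin, differed by -0.14 (limma adjusted p 0.678). Bmp1 is not a ligand but a protease that cleaves chordin and procollagen, and it differed by 0.08. The other probe of Bmp1, well above background on all arrays, differed by -0.24, so that the probes disagreed in sign. Bmp2k, a kinase that only shares the name, differed by 0.61 (SE 0.27, limma adjusted p 0.281), with young arrays from 9.10 to 10.40 and aged arrays from 10.01 to 10.63.

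Where a member had 2 probes they often disagreed. For 12 of the 17 such members the probes had opposite signs, and for 5 the same. The widest gap was that of Gdf3 (-0.46 against 0.26 on a probe well above background on no array) and the next that of Tgfbr1 (0.48 against -0.04). Among the other probes, those of Gdf7 and Smad1 were lower and that of Tgfbr2 higher without overlap, and for Gdf7 and Smad1 this was against the brighter probe. None of the 4 called members had another probe to set beside it.

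Further genes of the pathway were counted from lists of other ligands and co-receptors, latency proteins, secreted inhibitors, intracellular regulators and targets. Of 80 measured genes limma called 1 higher and 1 lower, with 9 higher and 7 lower at an unadjusted p under 0.05. These shares, 2.5% and 20.0%, were near those of all tested genes, 2.66% and 17.4%. The lower one was Zfyve9, which encodes SARA, the anchor that presents Smad2 and Smad3 to the TGF-beta receptor. It read 10.80, 10.61, 10.65 and 10.72 in 3M and 9.08, 8.14, 9.80 and 8.03 in 29M and fell by 1.93 (SE 0.34, limma adjusted p 0.0288). The young arrays were close together and the aged ones spread out, but the groups did not overlap. The call held in all 18 alternatives, with changes from -2.28 to -1.69, but Zfyve9 was read by 1 probe only. It was known to fall in these data before the list was written.

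The Id genes, which BMP signals switch on in most cells, were higher in mean without a call. Id1 read 13.23, 13.32, 12.95 and 13.07 in 3M and 13.83, 13.35, 13.51 and 13.58 in 29M, a difference of 0.43 without overlap (limma adjusted p 0.123). Id2, Id3 and Id4 differed by 0.39, 0.28 and 0.14, with limma adjusted p of 0.128, 0.433 and 0.522. The collagens Col1a1 and Col3a1 differed by -0.58 and -0.52 (limma adjusted p 0.306 and 0.427). Hey1, Atoh8, Msx1 and Msx2, of the same list of targets, differed by -0.10, -0.11, 0.03 and -0.02. The 20 measured targets had a median change of 0.00, with 10 higher and 10 lower.

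Of 14 latency and activation genes limma called 0, with 2 higher at an unadjusted p under 0.05 and a median change of 0.10. Of 13 other ligands and co-receptors limma called 0, with 1 higher and 3 lower at an unadjusted p under 0.05, and the largest difference was that of Tdgf1, the Nodal co-receptor Cripto (-0.65, limma adjusted p 0.142). Of 17 secreted inhibitors limma called 0, with 1 higher and 2 lower at an unadjusted p under 0.05. The higher one was Chrdl1, a chordin-like BMP trap (0.38, limma adjusted p 0.133). The lower ones were its relative Chrdl2 (-0.37, limma adjusted p 0.187) and the follistatin-like Fstl5 (-0.31, without overlap, limma adjusted p 0.107). Twsg1, a chordin partner, differed by 0.61 (limma adjusted p 0.309), or by 0.27 without replicate 4 of 3M.

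Bmp5, Bmp6 and Bmp7 are also made by meninges and choroid plexus, so those markers are given beside them. All 10 meningeal markers and 8 of 9 choroid plexus markers were well above background on every array. The other, Aqp1, had no usable value on replicate 4 of 3M and is missing from the sum of that array. Limma called 0 of either list, with 2 and 0 at an unadjusted p under 0.05. Of the meningeal markers 7 were higher and 3 lower in 29M, with a median change of 0.21. The 2 at an unadjusted p under 0.05, Slc22a6 (0.61) and Crabp2 (0.47), were higher. The 3 lower ones were Col1a1 (-0.58), Col3a1 (-0.52) and Col1a2 (-0.09). Of the choroid plexus markers 6 were higher and 3 lower, with a median change of 0.15. The summed level of the meningeal list ran from 16.37 to 16.71 in 3M and from 16.30 to 17.11 in 29M, and that of the choroid plexus list from 18.41 to 18.90 and from 18.55 to 18.85. The choroid plexus sum is mostly Ttr, at 18.05 to 18.30 over all arrays. Replicate 3 of 3M was the lowest young array for every choroid plexus marker. It read 12.50 against 13.41 to 13.98 for Otx2 and 13.42 against 14.58 to 15.01 for Folr1. Bmp6 was lowest among the young on this array too, and Bmp5 and Bmp7 were not. The part of either tissue in the values of Bmp7 was not tested.

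**Figure D4:**
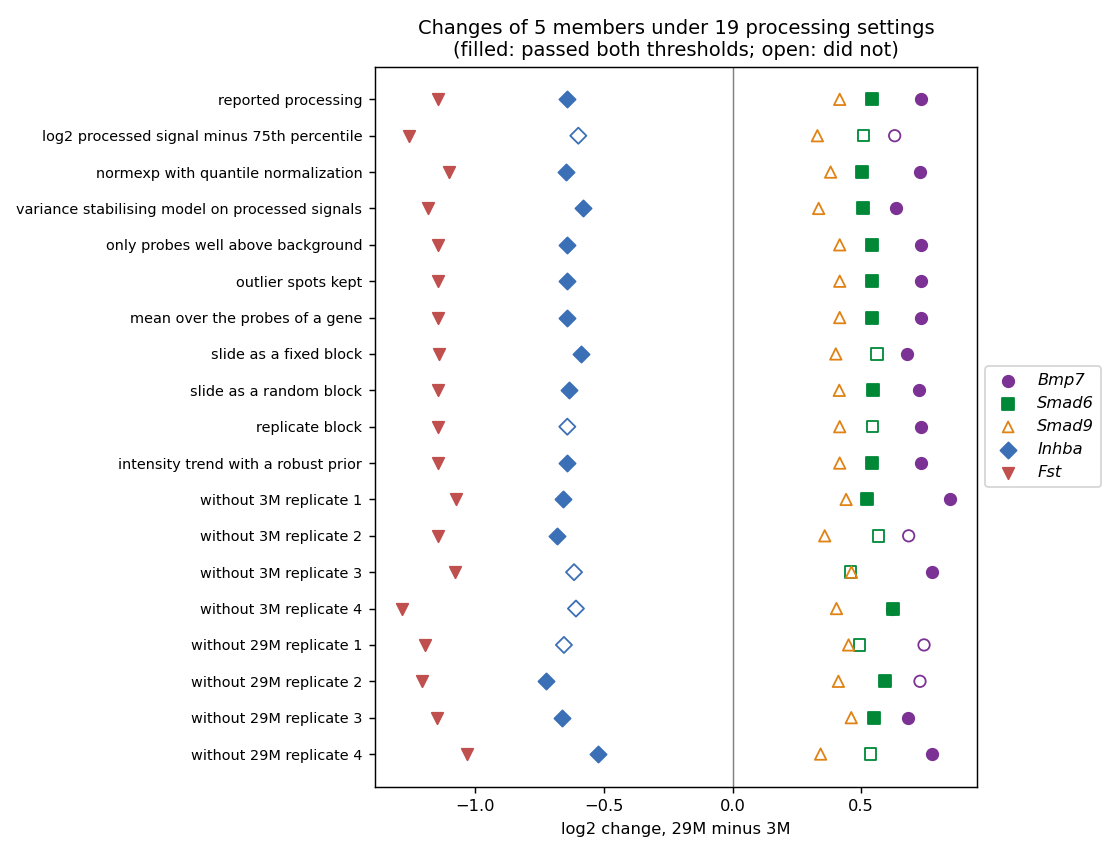
Log2 change, 29M minus 3M, of Bmp7, Smad6, Smad9, Inhba and Fst under the reported processing and 18 alternatives, 1 row each. Filled symbols passed both thresholds and open ones did not. No gene crosses the line at 0, Fst (-1.28 to -1.03) is filled in every row, and Smad9 in none.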

How the data were processed

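Hippocampal RNA of 4 samples of 3M and 4 of 29M was measured on 1-colour arrays. The authors deposited scanner intensities on a linear scale, made per the file headers with Agilent Feature Extraction 10.7.3.1 and not normalized between arrays. Members and gene lists were chosen with earlier results of these data known. Precision is limited by there being 4 arrays in a group.

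Control spots and outlier spots (127 to 190 per array) were left out. Following the study's methods, median spot intensities were normalized by a variance stabilising model (trimming quantile 0.9, 7 iterations), written in R 4.3.3 because the original package was not installed, and given as generalized log2. Replicate spots were averaged, and limma 3.58.1 (age as the sole term) was run on the 39408 probes with at least 3 usable arrays per group, with Benjamini-Hochberg adjustment over all of them. A call needed an adjusted p under 0.1 and a log2 change of at least 0.5. Dim probes were kept. The procedure was tested on simulated data. Accessions named 66.1% of probes through RefSeq (GRCm38.p6). The arrays were designed on another build, so probes have no coordinates here. Values of every array are given for members that were called, did not overlap or were on a list of central genes; other members are given as differences. A few of these (Inha, Acvr2a, Tgfbr3, Bmp2k and Gdf15), the other probes of Gdf7 and Smad1, and the markers and pathway genes other than those called were singled out after their values were seen. The higher gene among the other pathway genes is not reported here by name. The deposited table of the whole series held local background, in 7 of 8 columns that of another sample's scanner file (to 0.001), and was not used. Samples were taken as the scanner files are assigned. Summed marker levels are log2 of the summed linear values. The alternatives were other signals and normalizations, a filter on dim probes, outlier spots kept, gene means, blocks for slide or replicate number, another prior, and each array left out.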

Additional observations from a re-analysis of the deposited data

Results flagged for a closer look

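The array farthest from the others was examined in 54 groups of 4 arrays, those of the 27 members with values of every array by the rule. In 4 of them the gap to the next array took up most of the range, and about 2.7 (1 in 20) would be so by chance. Replicate 3 of 29M was highest for Tgfb3, at 12.51 against 12.25 to 12.27 (gap 0.906 of the range), and for Tgfbr2, at 13.16 against 12.99 to 13.02 (0.844). Replicate 1 of 3M was highest for Bmpr1b, at 10.61 against 10.49 to 10.50 (0.890), and replicate 3 of 3M for Bmp8b, at 7.70 against 7.43 to 7.47 (0.841). None of these 4 members was called.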

How the results depend on the processing

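Over the 27 members with values of every array and 18 alternatives, 460 of 486 values kept their direction and their side of the thresholds, 16 lost a call and 10 changed sign. Fst kept its call throughout. After 75th percentile scaling of processed signals 0 members were called higher and 1 (Fst) lower, and 0 other pathway genes higher and 2 (Cfc1 and Zfyve9) lower. Processed signals under the variance stabilising model gave the same 2 lower. With slide as a fixed block 1 member (Bmp7) was higher. With the replicate number as a block 1 member (Bmp7) was called higher, 1 (Fst) lower and 0 other pathway genes higher, and over all probes 275 were higher and 159 lower, against 476 and 296 without it. Same-numbered samples did not pair: their deviations from the group means correlated with r of -0.33, 0.29, -0.31 and 0.11 over 30373 probes, which are not independent replicates, and only replicate 4 correlated best with its own number. Leaving out each array in turn gave 0 to 2 members called higher and 1 to 4 lower, 0 to 1 other pathway genes higher and 1 to 2 lower, and 261 to 792 probes higher and 140 to 592 lower, the most without replicate 1 and the fewest without replicate 2 of 3M. The second lower pathway gene was Tdgf1, without replicate 4 of 3M. The signs that turned were those of Nog (0.17 and 0.0015 with slide as a fixed and a random block, and -0.257 to 0.112 without single arrays), Tgfb2 (0.0386 with slide as a fixed block, and -0.456 to 0.0132 without single arrays) and Bmpr1b (-0.0005 as the mean of its probes). The cause of each was not tested. Bmp15, Gdf2, Gdf6 and Inhbc are limited by signal over background.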
